A study of Neurospora crassa with 6 samples.

Results

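The comparison is of the os2 mutant with wt during dual stress (DS), and it is made transcript by transcript as the log2 ratio of FPKM in os2 DS over FPKM in wt DS. FPKM is a transcript level from sequenced fragments, corrected for transcript length and for the size of the library. Of the 9730 genes measured, 8098 averaged 1 FPKM or more across the 6 libraries, and 8072 of these were above 0 in both DS libraries and could be compared. Another 9 were listed at 0 only in os2 DS, 16 only in wt DS and 1 in both.

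The os2 strain is UCLA 80A, a point mutant in an SL4 background whose Os-2 protein is truncated and non-functional, and wt is OR74A. The strains do not share a background, so the os-2 mutation and the rest of the strain difference cannot be told apart. Both were germinated from conidiospores for 5 hr at 30°C in Vogel's medium with 0.05% glucose. DS was 45°C for 2 hr with 2-deoxyglucose (2-DG), a glucose analog that enters glycolysis but is not broken down by it. Heat shock (HS) was 45°C for 2 hr without 2-DG, and control cultures had 1 more hr at 30°C. With 1 library per strain and condition, no difference has a replicate check, and all ratios describe these libraries. In RNA from whole cultures, fewer cells that hold a transcript and less transcript per cell cannot be told apart. In longer plate assays the study found DS lethal to most wt spores, whereas most os2 spores survived. It also reported slower early uptake of 2-DG by os2. Whether either bears on the ratios was not tested.

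Os-2 is a mitogen-activated protein (MAP) kinase of the Hog1 family. It is the last kinase of a phosphorelay in which the histidine kinase Os-1, the phosphotransfer protein Hpt-1, the response regulator Rrg-1, the MAPKKK Os-4 and the MAPKK Os-5 act in turn. In Neurospora the pathway is known for adaptation to high osmolarity, for sensitivity to certain fungicides and for passing signals of the circadian clock to clock-controlled genes.

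The mutated gene itself, os-2 (NCU07024, chromosome IV, 4948586 to 4952179 of assembly NC12), had 34.3, 37.01 and 37.5 FPKM in os2 at 30°C, HS and DS, against 113, 65.1 and 67.1 FPKM in wt. A point mutant can keep its transcript, and here the level was lower in os2 in each condition, although with the columns scaled to equal totals the DS ratio of -0.84 becomes 0.05. The osmosensing list of 12 genes also holds some outside the relay described above. Of the 12, 1 was higher and 2 were lower in os2 DS by 2-fold or more. Of all compared genes, 11.4% were that much higher and 16.5% that much lower. The higher member was os-4, with 39.2 FPKM in os2 DS and 17.5 FPKM in wt DS. The lower members were the phytochrome genes phy-1 (3.84 FPKM in os2 DS, 8.57 in wt DS) and phy-2 (1.02 FPKM in os2 DS, 2.63 in wt DS). Both lie outside that relay, and neither stays past 2-fold with a pseudocount of 1 FPKM, where the ratios are -0.98 and -0.84. The core relay genes os-1, os-5, rrg-1 and hpt-1 had log2 ratios of 0.07, 0.28, 0.38 and -0.70.

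Across the 8072 genes, 917 were higher and 1329 lower in os2 DS by 2-fold or more, which is the meaning of past 2-fold below. At 4-fold or more, 106 genes (1.31%) were higher and 273 (3.38%) lower, and at 8-fold or more, 27 were higher and 63 lower. The median log2 ratio was 0.01, and 47.6% of the genes were within 1.5-fold. The lower genes were most frequent among genes with a high mean FPKM. That mean includes both DS libraries, so a transcript very high in wt DS gains in mean while its ratio falls. The trend is thus partly built in. In the top 1 of 6 equal bins of mean FPKM, from 72.7 up, 34.5% were lower and 2.90% higher past 2-fold, and the median was -0.59, whereas in the other 5 bins the medians lay between -0.03 and 0.18. Short genes were past 2-fold more often in both directions. In the shortest of 6 bins of gene length 24.5% were lower and 16.1% higher in os2 DS, against 6.91% and 7.73% in the longest. The list counts below stand beside 11.4% higher and 16.5% lower over all genes. For lists of abundant transcripts the share to set beside them is the 34.5% lower of the top bin.

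**Figure D1:**
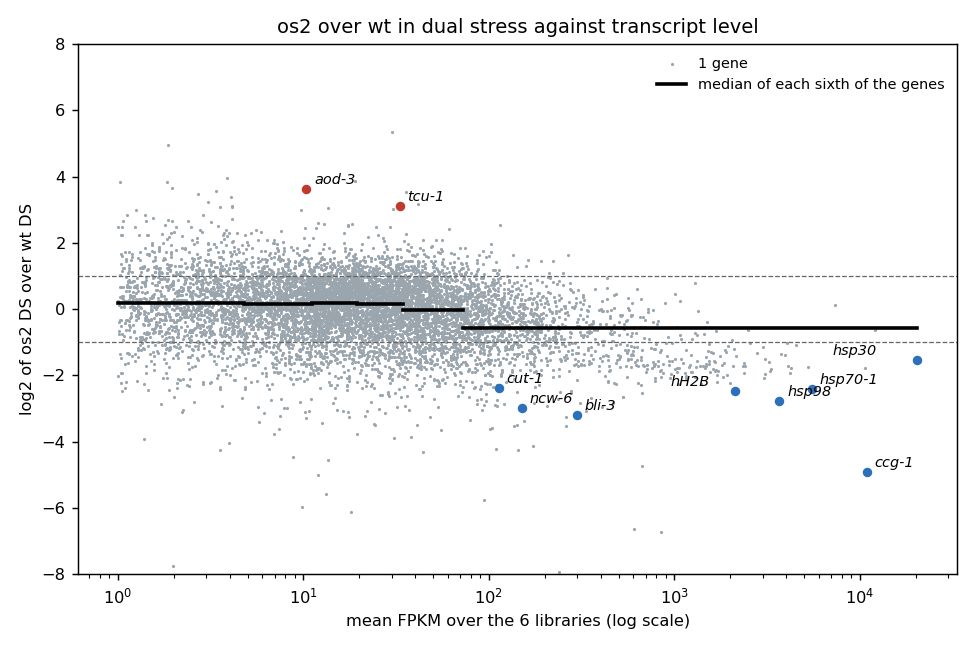
Each point is 1 of 8072 genes, with its mean FPKM over the 6 libraries on a log axis and the log2 ratio of os2 DS over wt DS, where dashed lines mark 2-fold and black bars the median in each of 6 bins of mean FPKM. Highly expressed genes such as hsp70-1 and ccg-1 lie below 0, while aod-3 and tcu-1 lie above 3, and 11 genes fall outside the axis of -8 to 8.

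The sum of all FPKM was 484273 in os2 DS and 899576 in wt DS, and a few abundant transcripts made up much of this gap. The 10 genes with the largest difference carried 34.5% of it and the top 100 carried 71.9%. Scaling the columns to the same total would add 0.89 to each log2 ratio. The split of 917 higher and 1329 lower genes then becomes 3714 higher and 331 lower. Ratios between -0.89 and 0 turn positive under that scaling, and of 23 list medians followed, 11 do so. They are those of sulfur, nitrogen, purine and arginine genes, the proteasome, complex I, the vacuolar ATPase, antioxidant enzymes, osmosensing, the other MAP kinase pathways and the clock. The deposited values keep the median gene near 0, and ratios here are of deposited values unless stated.

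Chaperones refold or disaggregate heat-damaged proteins, and several of their most abundant transcripts were lower in os2 DS than in wt DS. Of 10 genes with an hsp symbol, 6 were lower in os2 DS past 2-fold and none higher, with a median log2 ratio of -1.40. Over all genes 16.5% were lower, and 34.5% in the top bin of mean FPKM. Together they summed to 43268 FPKM in os2 DS and 145131 FPKM in wt DS. The disaggregase gene hsp98 (NCU00104, chromosome III) had 45.6, 232 and 2721 FPKM in os2 at 30°C, HS and DS, against 46.5, 443 and 18575 FPKM in wt. The cytosolic chaperone gene hsp70-1 had 913, 2724 and 4138 FPKM in os2 across the same conditions, against 971, 2268 and 22066 FPKM in wt. Both strains were alike at 30°C in these genes, and they were apart in DS, with a log2 ratio of -2.77 for hsp98 and -2.41 for hsp70-1.

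The mitochondrial disaggregase gene hsp78 (log2 ratio -2.25), hsp80, which encodes the Hsp90 chaperone (-1.71), and the small heat shock protein gene hsp30 (-1.55) were lower too. The co-chaperone genes Fes1 (NCU04172) and Sis1 (NCU03732) had 391.6 and 670 FPKM in os2 DS, against 2467 and 3038 FPKM in wt DS. The 6th lower gene, hsp70-2, had 1252, 593 and 252 FPKM in os2 at 30°C, HS and DS, against 1166, 134 and 598 FPKM in wt, so its DS level was below its 30°C level in both strains. The other 4 hsp genes were within 2-fold. The transcript of hsp60, a mitochondrial chaperonin, stood at 812 FPKM in os2 DS and 1185 FPKM in wt DS, and hsp88 at 851 and 977 FPKM. Of 17 genes that the study listed as stress proteins from protein data, the transcripts of 8 were lower past 2-fold and none higher. Their median transcript ratio of -0.69 turns positive at equal totals. The proteins themselves went the other way in the study, which reported the major heat shock proteins as more abundant in os2 than in wt at a later time of DS.

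Transcripts for core histones, the proteins that package DNA, were also lower in os2 DS. All 6 genes for core histones and the linker histone (hH2A, hH2B, hH3, hH4-1, hH4-2 and hH1) were at least 2-fold lower in os2 DS, with log2 ratios of -2.48 to -1.48, and the list of 9 had a median of -1.52. The histone gene hH2B (NCU02435) had 2600, 321 and 1085 FPKM in os2 at 30°C, HS and DS, against 2424, 258 and 6035 FPKM in wt. Its DS level was thus below the 30°C level in os2 and above it in wt. The other 3 members, the variant genes hH3v, hH4v and hH2Az, had ratios of -0.64, -0.47 and 0.21. In HS the histone list had a median ratio of -0.09 and no member past 2-fold. The libraries were made from polyadenylated RNA. The gene pcn, for the sliding clamp of DNA replication, had 67.2 FPKM in os2 DS and 251 FPKM in wt DS.

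The same direction held for genes of protein synthesis. All 7 genes with a crp symbol, which encode cytosolic ribosomal proteins, were lower in os2 DS, with log2 ratios of -1.91 to -1.51 and a median of -1.65. The gene crp-7 (NCU08627) had 9006, 1484 and 1326 FPKM in os2 at 30°C, HS and DS, against 8413, 670 and 4551 FPKM in wt. For crp-5 the values were 3800, 419 and 341 FPKM in os2, against 3954, 134 and 1244 FPKM in wt. In os2 the DS level thus stayed near the HS level, whereas in wt it was several-fold above it.

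This pattern showed in the medians of the list, where log2 DS/HS was -0.15 in os2 and 3.21 in wt. The ribosomal protein gene cyh-2 (log2 ratio -2.23), cpc-2, a ribosome-associated G protein beta-like gene (-2.30), and tef-1, the elongation factor 1-alpha gene (-1.04), were also lower in os2 DS. The gene cpc-3, for a kinase that acts in the response to amino acid shortage, was higher, with 47.0 FPKM in os2 DS and 17.4 FPKM in wt DS.

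**Figure D2:**
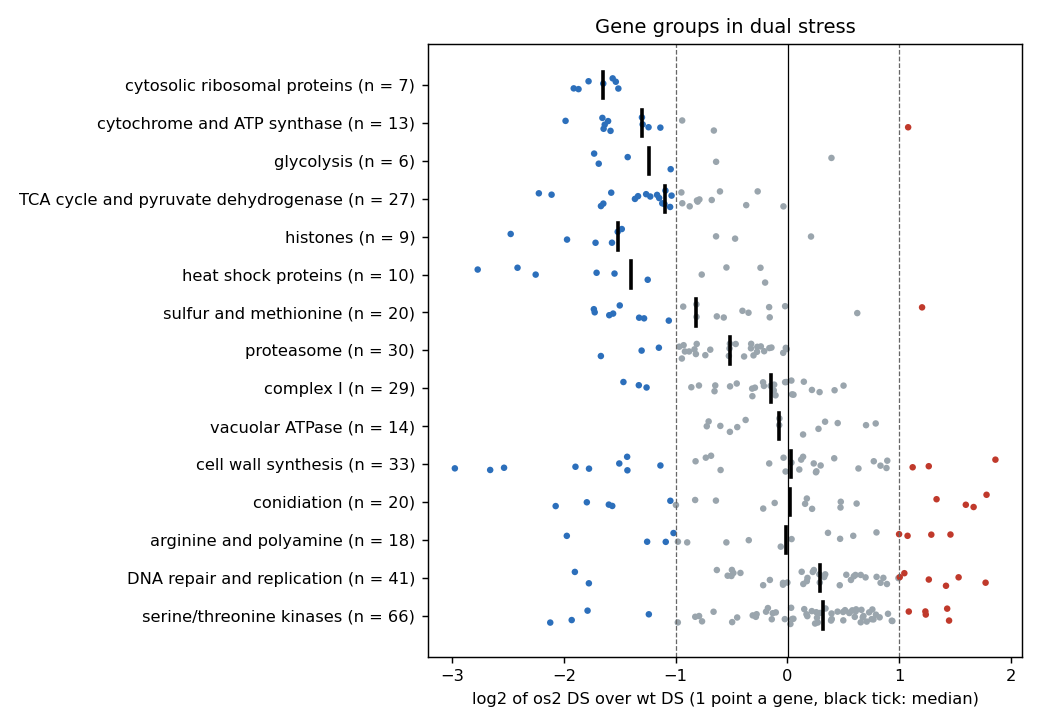
Points are the genes of 15 lists taken by symbol, placed by the log2 ratio of os2 DS over wt DS, with blue for at least 2-fold lower, red for at least 2-fold higher, grey for the rest, a black tick for the list median and a thin line at the median of all genes, 0.01. The 7 ribosomal protein genes all lie below -1.5, while the 14 genes of the vacuolar ATPase lie between -0.72 and 0.79.

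Genes of central carbon metabolism and respiration were lower in os2 DS. On the list of the tricarboxylic acid (TCA) cycle, pyruvate dehydrogenase and the acetate-utilization genes, 16 of 27 were lower past 2-fold and none higher. The median log2 ratio was -1.09. Over all genes 16.5% were lower, and 34.5% in the top bin of mean FPKM. Among the 16 was ace-8, which the study names a pyruvate kinase. All 27 were below 0, but those above -0.89 turn positive at equal totals. Citrate synthase, cit-1, the entry step of the cycle, had 445, 114 and 154 FPKM in os2 at 30°C, HS and DS, against 570, 62.7 and 459 FPKM in wt. The malate dehydrogenase gene tca-15 had 236 FPKM in os2 DS and 750 FPKM in wt DS. The gluconeogenic gene acu-6, for phosphoenolpyruvate carboxykinase, had a ratio of -0.79 in DS and -2.81 in HS.

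Of 13 genes for cytochromes, their subunits and ATP synthase, 10 were lower and 1 was higher past 2-fold, with a median of -1.30. Cytochrome c, cyc-1, had 2225, 554 and 1068 FPKM in os2 at 30°C, HS and DS, against 1976, 125 and 4226 FPKM in wt. It was the lowest of that list in os2 DS relative to wt DS, at -1.98. The ATP synthase subunit gene atp-1 had 313 FPKM in os2 DS and 767 FPKM in wt DS. Complex I, the first proton pump of the chain, differed less. Of its 29 nuo genes, 3 were at least 2-fold lower, beside 16.5% of all genes. Its median was -0.15, a sign that turns at equal totals. The 14 genes of the vacuolar ATPase, another multi-subunit complex, had none past 2-fold.

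Glycolysis genes were lower too. Of 6, 4 were at least 2-fold lower and the median was -1.24. The enolase gene emp-7 had 1702, 1074 and 915 FPKM in os2 at 30°C, HS and DS, against 1699, 420 and 3034 FPKM in wt. The glyceraldehyde-3-phosphate dehydrogenase gene gpd-1 had 1613 FPKM in os2 DS and 4342 FPKM in wt DS, and emp-3, the only member above 0, had 49.1 and 37.3 FPKM. For these 6 genes the median log2 DS/30 was -0.91 in os2 and 0.12 in wt.

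Several biosynthetic genes were lower in os2 DS as well. Sulfur and methionine genes had 8 of 20 lower and 1 higher past 2-fold, with a median of -0.81 that becomes positive at equal totals. Methionine synthase, met-8, had 129 FPKM in os2 DS and 428 FPKM in wt DS, and S-adenosylmethionine synthetase, eth-1, had 109 and 362 FPKM. The exception past 2-fold was met-6 (NCU00892), with 16.5 FPKM in os2 DS and 7.135 FPKM in wt DS. The gene that the study calls Met6 is another, NCU08434, and it was lower in os2 DS, with a ratio of -2.36. The glutamate dehydrogenase gene am and the glutamine synthetase gene gln-1, which assimilate ammonium, had ratios of -1.91 and -1.41. On the purine and pyrimidine list 2 of 9 genes were lower past 2-fold, close to the 16.5% of all genes. One was ad-4, at 18.3 FPKM in os2 DS and 62.5 FPKM in wt DS.

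Many of the 15 lowest genes that averaged 10 FPKM or more were abundant in stressed wt and scarce in os2. They were picked for a low DS ratio. A gene scarce in os2 reaches that average only through wt, so this course is largely set by the choice. Of the 15, 11 were also at least 2-fold lower in os2 HS, against 17.9% of all genes compared there. At 30°C 9 were already that much lower in os2, against 3.0% of all genes. NCU06420, 1 of the 15, was listed at 0 in os2 at 30°C and in HS. It had no ratio there, so it is in neither count of lower genes. In wt, 10 of the 15 were at least 5-fold higher in HS than at 30°C, and the share of all genes was not worked out. The only one of them with a symbol or name is ccg-1 (NCU03753, chromosome V, 2302672 to 2303443), a clock-controlled and glucose-repressible gene. It had 72.0, 210 and 414 FPKM in os2 at 30°C, HS and DS, against 282, 51910 and 12535 FPKM in wt, 30.3-fold lower in os2 DS. The unnamed gene NCU00250 had 1.16, 0.44 and 0.87 FPKM in os2, against 5.33, 1207 and 213 FPKM in wt. In both, each os2 library was below each wt library from a stressed culture.

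Named genes with the same course were bli-3, a blue-light-induced gene, ncw-6, for a non-anchored cell wall protein, cut-1, known for its part in the response to osmotic stress, and cat-1, for a catalase of conidia. The bli-3 transcript had 3.19, 10.4 and 23.03 FPKM in os2 at 30°C, HS and DS, against 10.4, 1535 and 212 FPKM in wt. For ncw-6 the levels were 1.98, 7.64 and 16.7 FPKM in os2, against 8.04, 740 and 131 FPKM in wt. For cut-1 they were 32.0, 9.30 and 46.3 FPKM in os2, against 28.1, 321 and 240 FPKM in wt, where the strains were alike at 30°C only. From the study's lists of lipid enzymes, a phosphatidic acid phosphatase subunit (NCU09692) and the phospholipase PldA (NCU10400), had ratios of -3.47 and -2.28.

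Some of the lowest genes adjoin each other on the chromosome. Among genes at least 4-fold lower, 32 pairs were immediate neighbours, 54 of the 273 genes in all. Among the 106 genes at least 4-fold higher there were 3 pairs. A larger class holds more neighbours by its size alone, and the number of pairs to be met at random was not worked out. The counts therefore do not show more clustering of the lower genes. On chromosome V the invertase gene inv (NCU04265), NCU04266 and NCU04267 lie in a row, with log2 ratios of -2.21, -6.73 and -6.13. NCU04266 had 24.9 FPKM in os2 DS and 2646 FPKM in wt DS. Neighbouring transcripts can share reads where they overlap, and the counting by strand is not given in the sources used here.

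A few transcripts were near 0 in os2 in each condition. Genes below 0.1 FPKM in all 3 os2 libraries and at least 1 FPKM in all 3 wt libraries numbered 3, and there were 0 with the strains exchanged. NCU06420 (chromosome III, 1346145 to 1347475) was listed at 0 in os2 at 30°C and in HS and had 0.096 FPKM in DS, against 189, 31.9 and 363 FPKM in wt. NCU01011 was listed at 0 in the 3 os2 libraries and had 172 FPKM in wt DS. NCU08089 was listed at 0 in the 3 os2 libraries and had 4.23 FPKM in wt DS. These genes were at or near 0 in os2 whatever the treatment, and a missing sequence in the strain and a silent gene cannot be told apart from FPKM.

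The genes higher in os2 DS were fewer. Of the 49 genes with a symbol or name that were past 4-fold and averaged 10 FPKM or more, 8 were higher and 41 lower. Of the 15 highest at that level, 10 had no symbol or name. In 14 of the 15 wt DS was below wt HS, and in 9 os2 DS was above os2 HS. They were picked for a high DS ratio, so a low wt DS level is partly set by the choice. At 30°C 5 were already at least 2-fold higher in os2, against 2.99% of all genes. In HS 3 were that much higher and 2 that much lower, against 16.3% and 17.9%. The alternative oxidase gene aod-3 (NCU04874, chromosome IV, 576875 to 580204), whose product moves electrons past the cytochrome chain, had 2.03, 9.70 and 36.8 FPKM in os2 at 30°C, HS and DS, against 1.45, 9.14 and 2.997 FPKM in wt. It was thus alike between strains at 30°C and in HS, and 12.3-fold higher in os2 DS. Of the 8 genes on the list of alternative respiration, aod-3 was the only 1 past 2-fold. The other 7 were within 2-fold, and the list median was 0.01. The copper transporter gene tcu-1 (NCU00830, chromosome I) had 9.39, 70.1 and 52.4 FPKM in os2, against 8.24, 52.0 and 6.09 FPKM in wt. Its immediate neighbour, a ferric reductase gene (NCU00829), had 17.2 FPKM in os2 DS and 4.44 FPKM in wt DS. The zinc transporter gene tzn-1 and the phosphate permease genes pho-4 and pho-5, which take up further nutrients, had ratios of 2.22, 1.76 and 1.80.

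Genes of nitrogen uptake and breakdown lay on both sides. The symbol list of 14 nitrogen genes had 2 higher and 4 lower past 2-fold, beside 11.4% and 16.5% of all genes. Its median of -0.32 turns positive at equal totals. The study's lists of nitrogen genes had 3 higher and 2 lower of 8 among elevated RNAs, and 7 higher and 8 lower of 20 among reduced RNAs. A urea transporter (NCU09909) had 7.61, 2.10 and 68.1 FPKM in os2 at 30°C, HS and DS, against 16.9, 3.38 and 11.5 FPKM in wt. It was lower in os2 at 30°C and 5.91-fold higher in os2 DS. Arginase (NCU02084), which splits arginine into ornithine and urea, had 30.2 FPKM in os2 DS and 5.50 FPKM in wt DS. An agmatinase (NCU11320), which releases urea from agmatine, had 40.05 FPKM in os2 DS and 6.94 FPKM in wt DS, and a purine permease (NCU06918) had 70.9 and 12.8 FPKM. For lao, an L-amino acid oxidase gene, the levels were 16.1 FPKM in os2 DS and 4.10 FPKM in wt DS. In the other direction, a guanine deaminase (NCU07309) had a ratio of -2.74 and another L-amino acid oxidase (NCU01106) one of -1.42. The study put these genes in its tables after analysis of the same libraries, so their choice is not independent of their levels.

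Arginine and proline genes lay on both sides. On the list of 18 arginine, proline and polyamine genes, 4 were higher and 4 lower past 2-fold, beside 11.4% and 16.5% of all genes. The median of -0.01 turns positive at equal totals. The higher ones all have an arg symbol, among them arg-2 and arg-3, for the subunits of carbamoyl phosphate synthetase, and arg-10, with ratios of 1.08, 1.29 and 1.46. The lower ones are pro and spe genes, of proline and polyamine synthesis. The argininosuccinate lyase gene arg-10 (NCU08162) had 352, 251 and 173 FPKM in os2 at 30°C, HS and DS, against 279, 24.6 and 63.0 FPKM in wt. The proline gene pro-1 lay lowest, with 4.13 FPKM in os2 DS and 16.2 FPKM in wt DS. For cpc-1, the transcription activator of amino acid synthesis genes, the levels were 967 FPKM in os2 DS and 560 FPKM in wt DS.

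**Figure D3:**
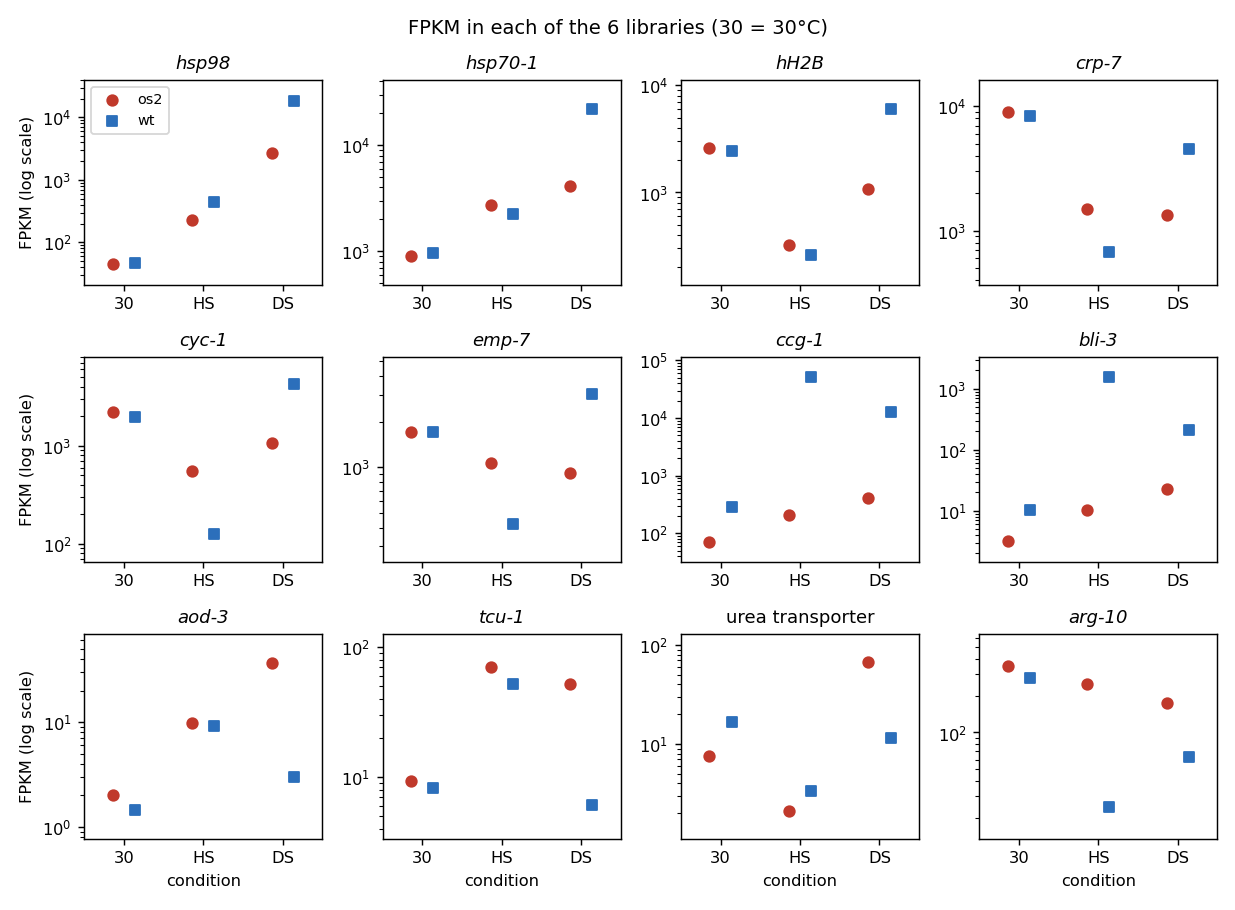
Points are FPKM on a log axis in each of the 6 libraries, os2 as red circles left of wt as blue squares, at 30°C, HS and DS, for 12 genes. In DS os2 lies below wt for the 8 genes of the upper rows and above it for aod-3, tcu-1, the urea transporter and arg-10.

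Autophagy and vacuole transcripts from the study's table of elevated RNAs stood higher in os2 DS. Of 11 such genes, 7 were higher past 2-fold and none lower, with a median log2 ratio of 1.45 in DS and -1.27 in HS. The study selected this list on the same libraries, so it gives no independent direction. For the 10 genes of the study's autophagy list from protein data, the transcripts had none higher and 3 lower past 2-fold. Their median transcript ratio of -0.28 turns positive at equal totals. These are RNA ratios only. The study reported most of the proteins on that list as more abundant in os2 than in wt, at a later time of DS. Several of those protein ratios passed only the relaxed significance limits of the study. The gene atg-8, for a protein of the autophagosome membrane, had a ratio of -0.33. A vacuolar amino acid transporter (NCU06231) had 29.9, 47.8 and 254 FPKM in os2 at 30°C, HS and DS, against 25.1, 138 and 85.7 FPKM in wt. The vacuolar fusion gene Mon1 (NCU09220) had 78.7 FPKM in os2 DS and 33.2 FPKM in wt DS. Both were thus lower in os2 than in wt in HS and higher in DS.

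Regulatory and DNA maintenance genes had medians slightly above that of all genes. The 66 serine/threonine kinase genes had a median of 0.32, with 5 higher and 4 lower past 2-fold. Higher were stk-24 (47.7 FPKM in os2 DS, 17.5 in wt DS) and stk-57 (71.6 FPKM in os2 DS, 26.6 in wt DS). The 41 genes of DNA repair and replication had a median of 0.29, with 6 higher and 2 lower past 2-fold. Of these, mus-10 had 63.3 FPKM in os2 DS and 18.5 FPKM in wt DS, and prd-4, the checkpoint kinase gene that also affects the clock, had 33.3 and 11.5 FPKM. Genes of RNA silencing and chromatin had a median of 0.34, with 4 of 41 higher and 5 lower past 2-fold. All genes had 11.4% higher and 16.5% lower, and nothing particular to these lists is read from their counts.

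Conidiation genes, which mark the formation of asexual spores, lay on both sides. Of 20, 4 were higher and 5 lower past 2-fold, beside 11.4% and 16.5% of all genes. The higher ones were fl, fld, acon-2 and acon-3. The regulator fl had 10.4 FPKM in os2 DS and 3.26 FPKM in wt DS, and fld had 79.9 and 26.4 FPKM. Among the lower ones were csp-1 (30.1 FPKM in os2 DS, 127 in wt DS) and the hydrophobin gene eas (140 FPKM in os2 DS, 415 in wt DS). The summed level of the 21 listed genes was 1101, 473 and 757 FPKM in os2 at 30°C, HS and DS, against 829, 1596 and 1185 FPKM in wt, and 1 of them was listed at 0, in wt at 30°C only.

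Clock and light genes likewise lay on both sides. Of 27, 3 were higher and 7 lower past 2-fold, beside 11.4% and 16.5% of all genes. Their median of -0.07 turns positive at equal totals. The oscillator gene frq had 61.8 FPKM in os2 DS and 57.6 FPKM in wt DS, the photoreceptor gene wc-1 had 59.5 and 61.6 FPKM, and vvd had 75.1 and 84.7 FPKM. These 3 genes were close between strains in DS, while the clock-controlled gene ccg-1 was lower and ccg-14, with 91.9 FPKM in os2 DS and 22.1 FPKM in wt DS, was higher.

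Of 33 cell wall genes, 9 were lower and 3 higher past 2-fold, beside 16.5% and 11.4% of all genes, and the median was 0.04. Besides ncw-6, the wall protein genes ncw-2 and acw-10 had 199 and 98.7 FPKM in os2 DS, against 1259 and 572 FPKM in wt DS. Antioxidant genes had 2 of 6 lower past 2-fold, cat-1 and the copper-zinc superoxide dismutase gene sod-1 (456 FPKM in os2 DS, 1487 in wt DS), and none higher. The manganese superoxide dismutase gene sod-2 had a ratio of 0.72 and cat-2 one of -0.17.

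The ratio of the strains in DS differed from their ratio in HS for many genes, and these comparisons share no library. Of 8081 genes compared in HS, 16.3% were higher and 17.9% lower in os2 past 2-fold, and at 30°C the shares were 2.99% and 3.0% of 7988 genes. Over the 7972 genes above 0 in all 6 libraries, Pearson's r across genes between the DS and HS log2 ratios was 0.09 and Spearman's rho was -0.01. Between DS and 30°C r was 0.42 and rho was 0.22. Genes are not independent replicates, and the values describe these libraries.

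Of the 1306 genes lower in DS in that set, 364 were higher in os2 HS and 348 lower past 2-fold, 27.9% and 26.6%. The 364 made up 27.7% of all genes higher in os2 HS, and the 348 made up 25.1% of all genes lower in os2 HS. Of the 887 genes higher in DS, 141 were also higher in os2 HS (15.9%) and 102 lower (11.5%), against 16.5% and 17.4% of all 7972 genes. At 30°C, 94 of the 887 were at least 2-fold higher in os2, 40.2% of all genes that much higher at 30°C, and 105 of the 1306 were at least 2-fold lower, 44.3% of all that much lower. A strain difference of 2-fold or more seen in DS and neither in HS nor at 30°C was found for 584 of the higher genes (65.8%) and 570 of the lower ones (43.6%). Of all 7972 genes, 63.5% were within 2-fold both in HS and at 30°C, so the share of the higher genes is near that of any gene.

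**Figure D4:**
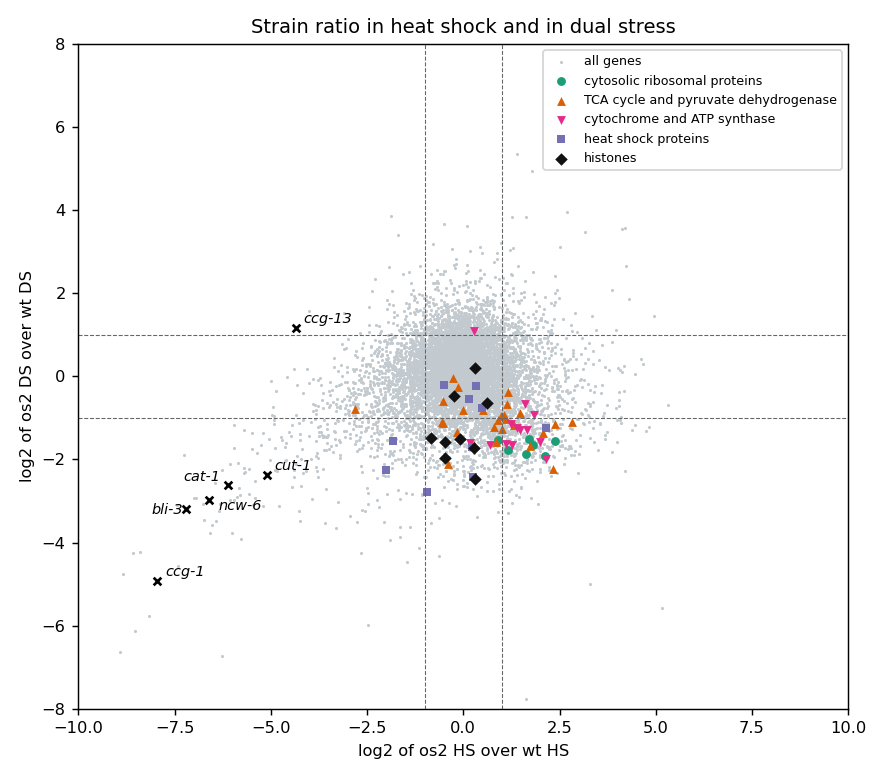
Each point is a gene, with the log2 ratio of os2 HS over wt HS across and of os2 DS over wt DS up, dashed lines at 2-fold, and 5 lists and 6 single genes marked. The ribosomal protein genes lie right of 0 and below it, with medians of 1.70 in HS and -1.65 in DS, 8 of 9 histone genes lie below 0 near the middle, ccg-1 and bli-3 lie at the lower left, and 15 genes fall outside the axes.

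Medians of several lists had opposite signs in HS and DS. Ribosomal protein genes had a median ratio of 1.70 in HS and -1.65 in DS, cytochrome and ATP synthase genes 1.39 in HS and -1.30 in DS, and glycolysis genes 1.47 in HS and -1.24 in DS. The TCA list had 0.90 in HS and -1.09 in DS. At 30°C these 4 medians lay between -0.18 and -0.02. Single members differed from their list, such as acu-6 on the TCA list at -2.81 in HS and emp-3 on the glycolysis list at 0.40 in DS. At equal totals the 4 DS medians stay below 0 but are no longer past 2-fold.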

How the data were processed

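RNA was measured by RNAseq in 6 libraries of polyadenylated RNA, 1 for each of 2 strains at 30°C, in HS and in DS. The authors deposited 1 FPKM value per gene and library, made with Cufflinks after quality control in FastQC and mapping by TopHat. Their genome was 74a_12, listed by RefSeq as assembly NC12. CASAVA 1.8.2 is named in the submitters' processing notes, and the other versions are not given in the sources used here. The scaling between libraries is not given either, but median-ratio factors of the columns lie between 0.99 and 1.01. The study gives total reads per library, fewer for os2 DS than for wt DS. Fragments per gene were not used here, so the precision of a single value was not worked out.

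From the deposited FPKM, log2 os2/wt was taken with nothing added to the values. A gene needed an average of 1 FPKM or more across the libraries and a value above 0 on each side. Vanishing values were kept as above 0, and 10 of the 8072 genes had less than 0.01 FPKM in a DS library. Genes at 2-fold or more were counted as higher or lower. With 1 library a group no test was made. The 1 row with no gene identifier was left out. A RefSeq table matched 9729 of 9730 identifiers and gave symbols for 1118 genes, and other names are those of the study's tables. Lists were taken by symbol, and 33 symbols caught by pattern but of another function were removed. Some remained, such as aln-1, for allantoinase, on the sulfur list as well as the nitrogen list. Another is ace-8, a pyruvate kinase in the study's naming, on the TCA list. The phytochrome genes phy-1 and phy-2 are on the osmosensing list. The members and lists were chosen with earlier results of these data known. Named genes were os-2, the 15 highest and 15 lowest that averaged 10 FPKM or more, genes with a symbol or name past 4-fold, genes past 2-fold in opposite directions, and list members behind a statement. A few others, neighbours or family members of these, were chosen after their values were seen. The authors' Cuffdiff comparisons were not used. The alternatives were other scalings, pseudocounts and filters, and a gene length of at least 2000 bases. The calculations used Python 3.11.15 and pandas 2.3.3 and were tested on simulated data.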

Additional observations from a re-analysis of the deposited data

Results flagged for a closer look

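Some groups and genes were past 2-fold in opposite directions between the strains in DS and in HS. With 1 library per strain and condition these differences were not tested, and each pair below gives the log2 ratio of os2 over wt in DS and then in HS. The medians were -1.65 and 1.70 for cytosolic ribosomal proteins, -1.30 and 1.39 for cytochrome and ATP synthase genes, -1.24 and 1.47 for glycolysis, and -1.01 and 1.41 for cross-pathway control and translation factors. The last list had 4 genes below 0 and 3 above in DS, and its DS median is no longer past 2-fold under median-ratio, upper-quartile or equal-total scaling.

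Single genes named here were lower in DS and higher in HS as well. For protein synthesis they were crp-5 (-1.87 and 1.64), crp-7 (-1.78 and 1.15), crp-2 (-1.56 and 2.39), cyh-2 (-2.23 and 1.37), cpc-2 (-2.30 and 2.00) and tef-1 (-1.04 and 1.41). For carbon metabolism and respiration they were cyc-1 (-1.98 and 2.14), qcr8 (-1.63 and 1.11), atp-1 (-1.29 and 1.48), tca-15 (-1.67 and 1.74), ace-3 (-1.10 and 2.82), emp-7 (-1.73 and 1.35), gpd-1 (-1.43 and 1.59) and xyk-1 (-2.68 and 1.502). The biosynthetic genes were met-8 (-1.73 and 1.34), eth-1 (-1.72 and 1.74), cys-11 (-1.59 and 1.11) and ad-4 (-1.77 and 2.49). The clamp gene pcn had -1.90 and 2.87, and the chaperone gene hsp70-2 had -1.25 and 2.15. The unnamed genes NCU02545 (-5.57 and 5.17) and NCU00798 (-5.001 and 3.30) had ratios of the same kind.

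Higher in DS and lower in HS were ccg-14 (2.05 and -1.86), ccg-13 (1.16 and -4.34), pho-4 (1.76 and -1.48), fld (1.599 and -1.13), uvs-2 (1.42 and -1.81), Mon1 (NCU09220, 1.24 and -1.73), the vacuolar amino acid transporter NCU06231 (1.57 and -1.53), the Env9-like oxidoreductase NCU09278 (1.99 and -1.37) and NCU00079 (3.86 and -1.88). Relative to 30°C, ccg-13 had 1.16 in DS and -1.35 at 30°C, and the urea transporter NCU09909 had 2.56 in DS and -1.148 at 30°C.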

How the results depend on the processing

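No paired analysis was possible because each strain and condition has 1 library. Scaling the columns to the same total gave 3714 genes higher and 331 lower in os2 DS past 2-fold, with a median log2 ratio of 0.90. A mean FPKM of at least 10 gave 494 genes higher, since fewer genes were compared. Keeping only genes of at least 2000 bases, an alternative chosen after seeing the data, gave 524 higher and 631 lower, with a median of 0.12. Otherwise the 2-fold counts and the median of all genes in DS stayed within 1.5 times or 0.1 under median-ratio and upper-quartile scaling, pseudocounts of 0.1 and 1, and no filter. Of 23 list medians, 11 changed sign with the same total and 0 to 2 under each other alternative. With the same total 7 more were no longer past 2-fold, those of ribosomal proteins, histones, heat shock proteins, cytochrome and ATP synthase, glycolysis, the TCA cycle and cross-pathway control. Of 121 genes followed, 30 were no longer past 2-fold with the same total and 11 changed sign, none of them past 2-fold. A pseudocount of 1 took phy-1 and phy-2 below 2-fold, and upper-quartile scaling took tef-1 and con-6 below it. A planned limit on protein length and a planned search of promoters were not run, as protein and promoter sequences were not used here; gene length took the place of protein length. Fragments per gene were not used, so how far single FPKM values vary by sampling was not worked out.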
